A study of Mus musculus with 6 samples.

Results

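The regions described here are those that the peak list of the Activin condition held and the lists of the DMSO and SB conditions did not. Each listed peak was given an interval on mm9, from 416 bp before to 416 bp after the position in the Activin list, from 467 bp before the position to the position in the DMSO list, and from 1109 bp before it in the SB list. Overlapping intervals were joined into 13017 regions, and 2946 of these (22.6%) held intervals from the Activin list alone. They took in 2960 of the 5094 Activin peaks (58.1%) and had a median width of 833 bp. A further 2017 regions held intervals of the Activin list and of another list. The members were therefore chosen by the presence of a peak in the Activin library and the absence of one in the other 2 ChIP libraries, and the levels of these libraries are given as a description with no test.

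The libraries came from E14 TG2A mouse embryonic stem cells, a line derived from the inner cell mass of the blastocyst. All cells were first held for 6 h in 10 µM SB-431542, an inhibitor of the type I Activin/Nodal receptors, so that the DMSO and Activin groups also carried this pretreatment. They were then kept for 18 h in KSR medium, a serum replacement medium, with 25 ng/ml Activin, with DMSO carrier at 1 part in 5000, or with 10 µM SB. Chromatin was immunoprecipitated with a rabbit polyclonal antibody to Smad2 phosphorylated at its C-terminal serines, and 1 ChIP library and 1 library of input DNA, not immunoprecipitated, were sequenced per treatment. With 1 library per group, a difference between groups had no replicate check, and every comparison below is between libraries.

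Nodal and Activin are ligands of the transforming growth factor beta family. Their receptors phosphorylate Smad2 and Smad3, which enter the nucleus with Smad4 and bind DNA at short CAGA elements, often beside partner factors such as Foxh1. In embryonic stem cells and in the early embryo the pathway acts on genes of mesendoderm and of left-right asymmetry, among them its own inhibitors.

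The sequence around the Activin position is shown for 9 members. The first 7 were picked among the named members because their stretches hold elements marked below. Nodal and Lefty1 are shown as target genes of the pathway whose stretches hold none of the marked elements. The first 4 are the members nearest to Lefty2, Fgf8 and Wnt3a and, in an intron of Lin9, near Mixl1; Camk1d and Pcnxl2 are among the members with the largest tag difference, and Has3 is among the largest near start sites. Each stretch is 201 bp of the mm9 plus strand centred on the listed position. Capitals mark CAGAC, the Foxh1 elements AATCCACA and AATACACA and the AP-1 element TGANTCA on either strand, so that GTCTG, TGTGGATT and TGTGTATT are their reverse complements, and neighbouring elements can run together.
Lefty2, chr1:182808023-182808223: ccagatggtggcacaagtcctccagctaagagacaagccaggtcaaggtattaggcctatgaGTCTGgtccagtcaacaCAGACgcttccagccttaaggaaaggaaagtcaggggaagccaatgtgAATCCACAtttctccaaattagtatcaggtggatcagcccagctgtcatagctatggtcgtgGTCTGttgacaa
Fgf8, chr19:45820572-45820772: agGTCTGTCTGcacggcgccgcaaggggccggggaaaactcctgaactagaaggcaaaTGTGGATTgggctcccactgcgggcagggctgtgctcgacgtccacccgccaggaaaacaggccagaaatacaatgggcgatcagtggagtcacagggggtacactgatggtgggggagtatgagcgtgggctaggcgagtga
Wnt3a, chr11:59095595-59095795: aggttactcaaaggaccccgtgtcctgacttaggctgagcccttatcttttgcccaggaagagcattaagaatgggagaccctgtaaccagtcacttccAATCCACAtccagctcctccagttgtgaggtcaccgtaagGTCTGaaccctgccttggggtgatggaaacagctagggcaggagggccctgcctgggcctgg
Lin9, chr1:182577977-182578177: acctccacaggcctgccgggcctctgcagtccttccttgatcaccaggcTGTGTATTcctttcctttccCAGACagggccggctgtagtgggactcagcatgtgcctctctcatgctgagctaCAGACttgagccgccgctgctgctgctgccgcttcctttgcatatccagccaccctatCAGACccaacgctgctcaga
Camk1d, chr2:5505779-5505979: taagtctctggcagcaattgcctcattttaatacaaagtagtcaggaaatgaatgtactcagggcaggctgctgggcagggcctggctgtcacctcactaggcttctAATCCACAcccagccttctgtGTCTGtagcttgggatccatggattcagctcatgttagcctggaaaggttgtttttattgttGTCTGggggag
Pcnxl2, chr8:128297362-128297562: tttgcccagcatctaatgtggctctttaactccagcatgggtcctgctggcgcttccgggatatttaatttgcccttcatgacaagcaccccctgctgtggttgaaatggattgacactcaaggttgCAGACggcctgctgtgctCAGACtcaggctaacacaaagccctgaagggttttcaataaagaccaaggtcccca
Has3, chr8:109393563-109393763: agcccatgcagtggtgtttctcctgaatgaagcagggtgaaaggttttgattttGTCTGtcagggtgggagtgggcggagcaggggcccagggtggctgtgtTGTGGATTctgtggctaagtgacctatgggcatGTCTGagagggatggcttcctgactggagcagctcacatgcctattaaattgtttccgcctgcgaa
Nodal, chr10:60878742-60878942: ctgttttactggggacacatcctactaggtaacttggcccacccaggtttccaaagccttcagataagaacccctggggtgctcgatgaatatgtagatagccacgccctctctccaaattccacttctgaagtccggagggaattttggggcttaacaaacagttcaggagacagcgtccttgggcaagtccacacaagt
Lefty1, chr1:182850832-182851032: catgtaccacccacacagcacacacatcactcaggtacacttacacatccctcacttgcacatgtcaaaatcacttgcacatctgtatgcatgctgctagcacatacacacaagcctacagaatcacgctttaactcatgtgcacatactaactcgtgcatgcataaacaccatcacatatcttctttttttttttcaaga
The Lefty2 stretch held 3 CAGAC and 1 AATCCACA, and the Fgf8, Camk1d and Has3 stretches each held 2 CAGAC and 1 AATCCACA. The Wnt3a stretch held 1 of each, the Lin9 stretch 3 CAGAC and 1 AATACACA, and the Pcnxl2 stretch 2 CAGAC alone. The Nodal and Lefty1 stretches held 0 of these elements, as did those of the members near Esrrb, Slain2, Add3 and Tnk2, so that the stretches shown are not typical of the members. The shorter CAGA, which was not marked, was found 2 times in each of the Nodal and Lefty1 stretches.

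The 6 libraries held from 9757735 tags in the SB ChIP library to 13148559 tags in the Activin ChIP library. Of the ChIP tags, 19.9% to 24.6% had another tag at the same position and strand, against 5.64% to 6.94% in the inputs. A tag was counted in a region when the middle of its 200 bp fragment lay there, and counts were scaled to 1000000 tags of the library, called scaled tags below. At the members the median was 21, 13 and 8 tags in the Activin, DMSO and SB ChIP libraries and 5, 8 and 7 in their inputs. Counts of this size limited the precision of any single ratio, and the 95% Clopper-Pearson intervals given below cover counting error only.

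The members' level was highest in the Activin ChIP library on the whole, with an overlap between libraries. The median of scaled tags was 1.60 in Activin (quartiles 1.22 and 2.13), 1.01 in DMSO (0.54 and 1.63) and 0.82 in SB ChIP (0.41 and 1.54). The inputs had medians of 0.433, 0.63 and 0.666 for Activin, DMSO and SB. The Activin input, against which the Activin peaks were called, was therefore the lowest input at these regions. The same was seen elsewhere: the DMSO input was lowest at regions of the DMSO list alone, at 0.315 against 0.346 and 0.38, and the SB input at regions of the SB list alone, at 0.856 against 0.953 and 1.02.

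The Activin level was at least 2-fold that of DMSO in 1135 members (38.5%, 95% interval 36.8 to 40.3), where 10.4% of all 13017 regions were, and at least 2-fold that of SB in 1370 (46.5%), where 19.5% of all regions were. It was at least 2-fold both others in 787 members (26.7%, 25.1 to 28.4), where 6.28% of all regions were. In 1228 members (41.7%) it was 2-fold above neither. The median ratio was 1.68 to DMSO and 1.88 to SB. In 646 members (21.9%) the Activin level was not above DMSO or not above SB, and in 188 (6.38%) it was above neither. The order Activin above DMSO above SB was found in 1314 members (44.6%). Of its parts, Activin was above DMSO in 86.4% of the members, where 36.2% of all regions were. DMSO was above SB in 54.0%, near the 55.6% of all regions. No share over all regions was counted for this order, nor for the 1228, 646 and 188 members above. Since the rule used these libraries, the shares describe the members and support nothing further.

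**Figure D1:**
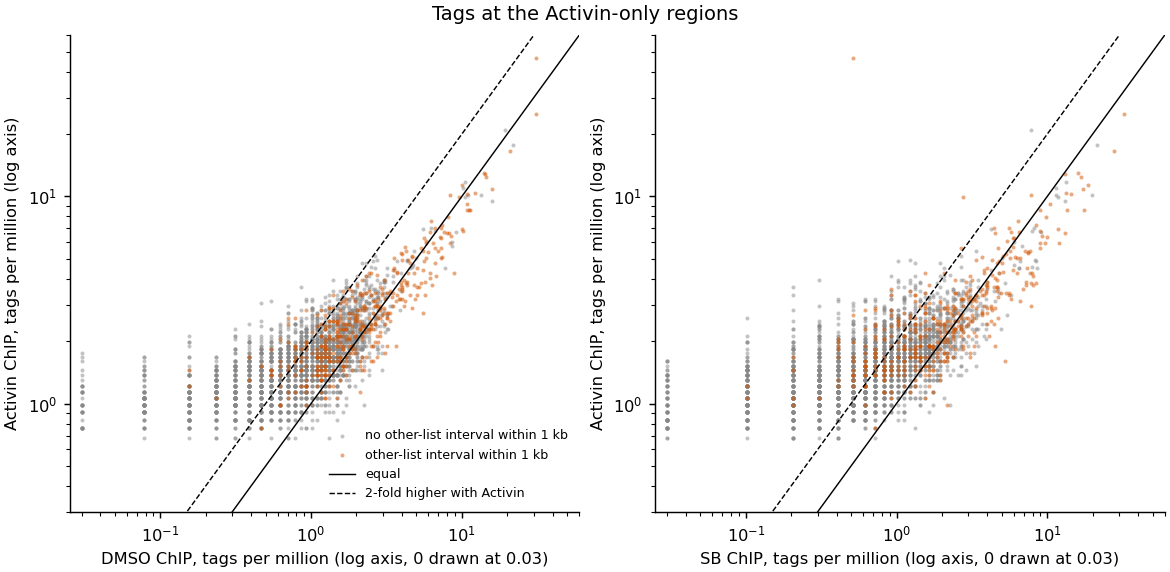
Scaled tags (per 1000000 tags of the library) in the Activin ChIP library (vertical, log axis) against the DMSO (left) and SB ChIP library (right, log axes) for the Activin-only regions, with a point per region, the region with most tags left out, and orange points for regions with a DMSO or SB interval within 1 kb. Regions of low level spread to both sides of the 2-fold line, while most regions above 10 scaled tags lie at or below the line of equal level, with Pgpep1 among the exceptions.

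Set against its own input, the Activin ChIP library was at least 2-fold higher in 2791 members (94.7%), where 54.4% of all regions were. The DMSO ChIP library reached 2-fold over its input in 881 members (29.9%), where 61.9% of all regions did, and the SB ChIP library in 855 (29.0%), where 53.5% did. One or both of them did so in 1351 members (45.9%), and the share over all regions was not counted for this. The input medians of 8 (DMSO) and 7 (SB) tags limit each such ratio, and no binding is read from this count.

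The mean profile showed the signal in a narrow window about the listed position. Over the members with no other-list interval within 1 kb, the Activin ChIP library had 0.234 scaled tags per 50 bp within 100 bp of the position and 0.0386 at 1000 to 1500 bp, a ratio of 6.07. The same ratio was 2.23 in DMSO and 2.08 in SB ChIP. The inputs also rose at the position, by a ratio of 1.38 for Activin, 1.79 for DMSO and 1.91 for SB. The ratios of the DMSO and SB ChIP libraries lay nearer to those of their inputs than to that of the Activin ChIP library. The members were kept for a peak in Activin and none in DMSO or SB. This order of the ratios therefore belongs to how they were chosen, and nothing is read from it.

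**Figure D2:**
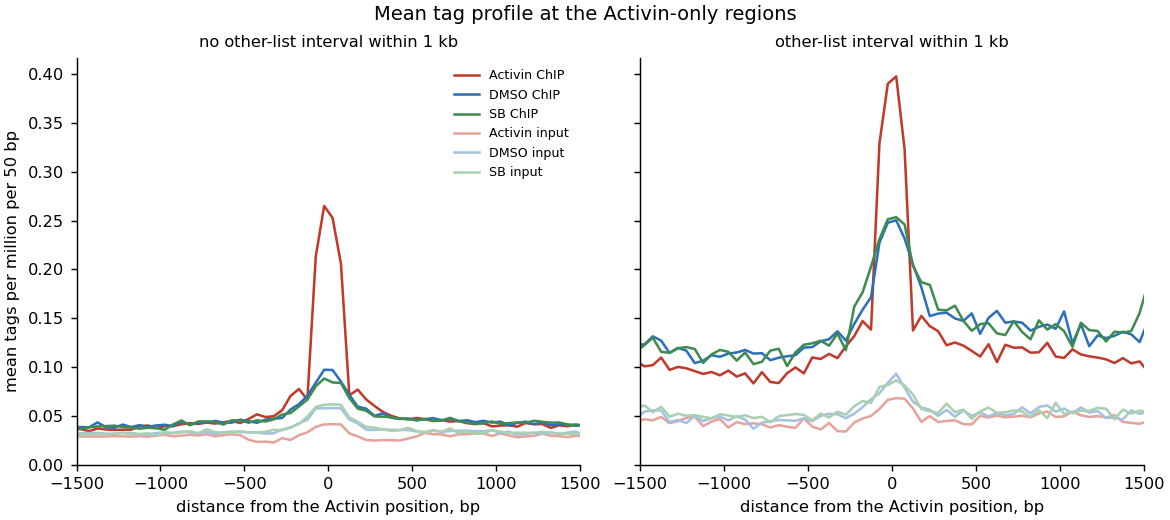
Mean scaled tags (per 1000000 tags of the library) per 50 bp (vertical) by distance from the Activin position in bp (horizontal) in the 6 libraries, for 2522 Activin-only regions with no DMSO or SB interval within 1 kb (left) and 423 with one (right), without the region with most tags. On the left the Activin ChIP line reaches 0.265 while DMSO and SB stay at 0.0972 and 0.0882, and on the right they reach 0.25 and 0.253 against 0.398.

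The members are described here by the height of their peak. The listed tag number and the ratios both come from the libraries of the rule, so nothing further is read from the shares by class. Regions outside the Activin list have no such tag number, and no shares over all regions were counted by class. The tag number in the Activin list had a median of 18 at the members (9 to 9051), and 40 at the regions shared with another list, and 115 members (3.9%) had 100 or more against 11.3% of the shared regions. Of the 790 members listed with 9 to 12 tags, 47.5% were 2-fold above both other libraries and 7.22% were not above DMSO. Of the 115 with 100 tags or more, 0 were 2-fold above both (upper 95% bound 3.16%), and 69 were not above DMSO. A DMSO or SB interval lay within 1 kb, without overlap, in 1.65% of the first group and in 71.3% of the second. In the 423 members with such an interval nearby (14.4%) the median ratios were 1.18 to DMSO and 1.15 to SB, and 5.67% were 2-fold above both. In the other 2523 the ratios were 1.81 and 2.04, and 30.2% were 2-fold above both.

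**Figure D3:**
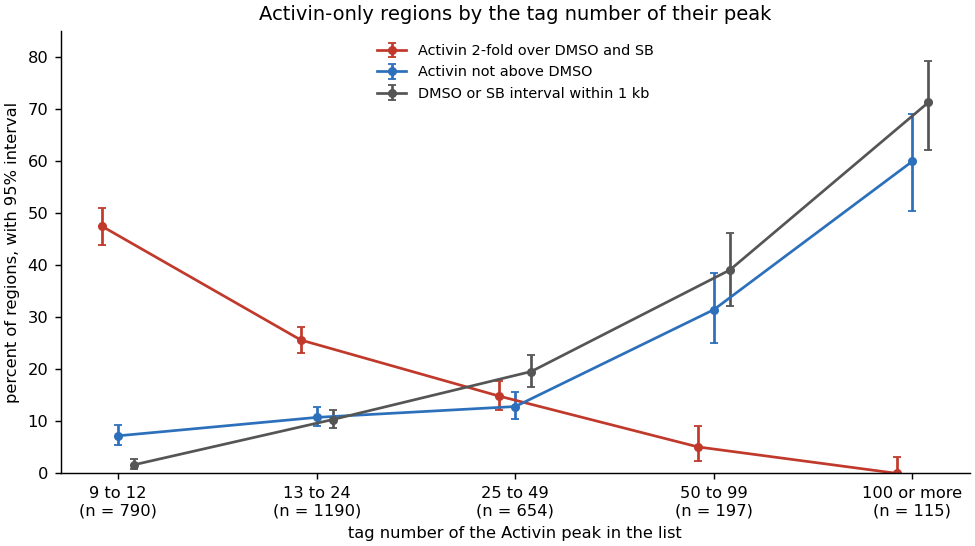
Percent of Activin-only regions (vertical, with 95% Clopper-Pearson intervals) by the tag number of their peak in the Activin list (horizontal, 5 classes). The share 2-fold above DMSO and SB falls from 47.5% to 0%, while the share not above DMSO rises to 60%. The share with a DMSO or SB interval within 1 kb rises to 71.3%. The classes and shares use the libraries of the rule and are a description.

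The position columns of the 3 lists did not mark the same point of a peak. Within 500 bp of the listed position, 50.4% of the distinct tags lay before it in the Activin list, 74.0% in the DMSO list and 75.9% in the SB list. Where an other-list interval lay within 1 kb of a member, it was to its right in 60.5%. How much this added to membership was not tested beyond other interval lengths: with DMSO and SB intervals reaching 1109 bp to both sides, 2624 regions were of the Activin list alone. At the edge of the rule, 7 members lay less than 20 bp from an other-list interval, with medians of 1.83 (Activin), 1.63 (DMSO) and 1.33 (SB) scaled tags. The 14 regions joined by an overlap of 1 to 20 bp, just outside it, had 3.95, 4.85 and 4.77.

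The tallest members were mostly no higher with Activin. The member with most tags, chr17:39981298-39982130, was 363.8 kb from the nearest coding start site, that of Pgk2. Its tags numbered 45529, 65240 and 93103 in Activin, DMSO and SB ChIP, and 1193, 1648 and 2135 in the inputs, against an input median of 5 to 8, so that this sequence was counted many times over without antibody as well. It set the sums: over all members the summed scaled tags were 1.01 times those of DMSO and 0.68 times those of SB, and without it 1.44 and 1.46 times. Mid1, which encodes a ubiquitin ligase of microtubules, had its start site 0.873 kb from a member with 330, 399 and 314 tags in Activin, DMSO and SB. Members near Nlrp12 and Ern1, the latter a sensor of endoplasmic reticulum stress, had 234, 281 and 209 and 171, 180 and 156 tags. For these 3 the ratio of Activin to DMSO was 0.81, 0.816 and 0.931, and that of Activin to SB, in scaled tags, was 0.78, 0.831 and 0.813. The SB library was the smallest, so that its lower tag numbers here stood for higher scaled levels than those of Activin.

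Among the inhibitors and ligands of the pathway, the values were moderate. Where a listed gene, here and below, had several members within 50 kb, the values are of a picked member. It was the one with the largest excess of Activin over the higher of DMSO and SB ChIP in distinct tags. The intervals do not cover this choice or that of the rule, so they are not read as a test. Lefty2, a secreted inhibitor of Nodal, had its nearest start site 15.1 kb from a member with 39, 17 and 8 tags in Activin, DMSO and SB ChIP, and 12, 16 and 15 in the inputs. Activin was 2.25 times DMSO there (1.24 to 4.24) and 3.62 times SB (1.67 to 8.96). Lefty1, its close relative, had a member 14.2 kb away with 34, 12 and 6 tags, and inputs of 10, 17 and 13. At both, the Activin ChIP library stood above all 5 others, and the SB ChIP library was below its input. The DMSO ChIP library was near its input at Lefty2 and below it at Lefty1. Fst, which binds and blocks Activin, had a member with 17, 5 and 3 tags. At these 3 members the interval of the ratio of DMSO to SB held 1. Nodal itself had a member 1.88 kb upstream with 48, 31 and 11 tags and inputs of 20, 14 and 21. There the ratio to DMSO was 1.52, with an interval of 0.946 to 2.47 that held 1, and the ratio to SB was 3.24 (1.66 to 6.91).

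Of the 27 genes of the Nodal/Activin pathway, 12 had a member within 50 kb of the gene body (44.4%), against 24% of all 22350 protein-coding genes, and 5 had a member 2-fold above both other libraries (18.5%, against 5.78%). They included Nodal, the receptor gene Tgfbr1, the inhibitors Lefty1, Lefty2, Smad7 and Fst, the Smad corepressors Ski, Skil and Tgif1 and the ubiquitin ligases Smurf1 and Smurf2. This list and those below were drawn up with earlier results of these data known, so their shares are a description.

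The intracellular members of this list had few tags. An intronic member of Ski had 40 tags in the Activin library, 22 in DMSO and 16 in SB, with inputs of 9, 16 and 12, and an SB interval 62 bp away. One of Skil had 17, 4 and 7 tags, and Activin was 4.16 times DMSO (1.36 to 17.0), while the ratio to SB of 1.80 had an interval of 0.71 to 5.14. The intronic member of Smad7, which encodes a feedback inhibitor of the receptors, had 26, 21 and 10 tags. The intervals of both ratios, 1.21 to DMSO and 1.93 to SB, held 1. The same held at Tgfbr1, with 12, 6 and 6 tags, at Tgif1, with 20, 9 and 6, and at Smurf1, with 23, 11 and 8. The member near Smurf2, upstream of Ccdc45, was the exception in direction, with 14, 22 and 10 tags. Tgif1 was the nearest gene of 7 members, and the run of 9 members about Tgif1 and Gm16519, at chr17:71121437-71266126, was the longest with at most 50 kb between neighbours. It summed to 308, 230 and 137 tags, and 1 of its 9 members was 2-fold above both.

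Of 15 regulators of mesendoderm, 4 had a member (26.7%, near the 24% of all coding genes): Mixl1, Lhx1, Fgf8 and Otx2. Near Mixl1, a homeobox gene of the primitive streak, the member in an intron of Lin9 at chr1:182577661-182578493 held 37, 21 and 5 tags (Activin, DMSO, SB ChIP), and 6, 9 and 15 in the inputs. Fgf8, a growth factor of gastrulation, had a member 3.27 kb upstream, at chr19:45820256-45821088, with 54, 31 and 20 tags and inputs of 14, 21 and 17, and Activin was 1.71 times DMSO (1.08 to 2.75). A further member within 50 kb of Fgf8, in an exon of Mgea5, had 18, 19 and 18 tags, and the intervals of both ratios held 1. Lhx1 had a member with 14, 2 and 2 tags. Otx2 had one with 22, 19 and 9.

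The FGF list had the highest share of genes with a member, 12 of 17 (70.6%, against 24% of all coding genes), and 0 of the 17 had one 2-fold above both other libraries, where 5.78% of all coding genes had. Spry1, an inhibitor of FGF signalling, had a member with 38, 19 and 13 tags in the same order. Etv5, a factor induced by FGF, had one with 31, 9 and 14. Here SB was not the lowest. The member near the start site of Fgf4, which was also that of Fgf15, held 32, 34 and 43 tags. The members taken for Fgf17 and Fgfr2 lay nearest to other genes, Npm2 and Bub3, and Fgf8 was also in the mesendoderm list. Of the Wnt list 7 of 16 genes (43.8%) had a member, and in the intronic one of the ligand gene Wnt3a, at chr11:59095279-59096111, there were 39, 22 and 5 tags with inputs of 9, 5 and 11. Of the BMP list 2 of 17 genes (11.8%) had a member and of the trophectoderm list 1 of 9 (11.1%).

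Of 18 pluripotency genes found, 9 had a member, a higher share than in the Nodal/Activin list (44.4%) or among all coding genes (24%). Of these 18, 0 had a member 2-fold above both other libraries, where 5.78% of all coding genes had. At Sox2 and Klf2, which are named here after their values were seen, the Activin level was below that of SB. Near the start site of Sox2 there were 150, 129 and 182 tags, and near Klf2 51, 73 and 71. Both had an other-list interval within 1 kb. The member within 50 kb of Nanog, nearest to Slc2a3, had 131, 136 and 115 tags. Esrrb, an orphan nuclear receptor gene, had a member with 44, 28 and 13 tags, an SB interval 636 bp away and a ratio to DMSO of 1.54 whose interval held 1 (0.937 to 2.57). Pou5f1, which encodes Oct4, had a member 0.254 kb upstream of its start site with 32, 23 and 21 tags, and the intervals of both ratios held 1 (0.773 to 2.44 against DMSO, 0.632 to 2.06 against SB). Nr5a2 and Sall4 had 27, 27 and 11 and 22, 15 and 11 tags. Over the 117 genes of all lists, 46 had a member (39.3%), and 7 (5.98%) had a member 2-fold above both, against 5.78% of all coding genes.

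The members with the largest difference in distinct tags outside the lists were moderate in level. Near Slain2, a microtubule regulator gene, there were 39, 9 and 7 tags in Activin, DMSO and SB ChIP, with inputs of 10, 10 and 9, and Activin was 4.24 times DMSO (2.02 to 9.97) and 4.13 times SB (1.83 to 11.0). An intronic member of Camk1d, a calcium-dependent kinase gene, had 37, 13 and 10 tags. The intronic member of Thada had 52, 18 and 3, and the member 28.9 kb upstream of Oprd1, the delta opioid receptor gene, had 44, 19 and 2. In the last pair the DMSO level lay between the others and SB was below its input. The members near Pcnxl2, Gm5089, Add3, Pitpnc1 and Tnk2 had 50 to 68 Activin tags, against 26 to 34 for DMSO and 14 to 26 for SB. The member 446.4 kb from 1700008P02Rik had 30, 4 and 5 tags.

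**Figure D4:**
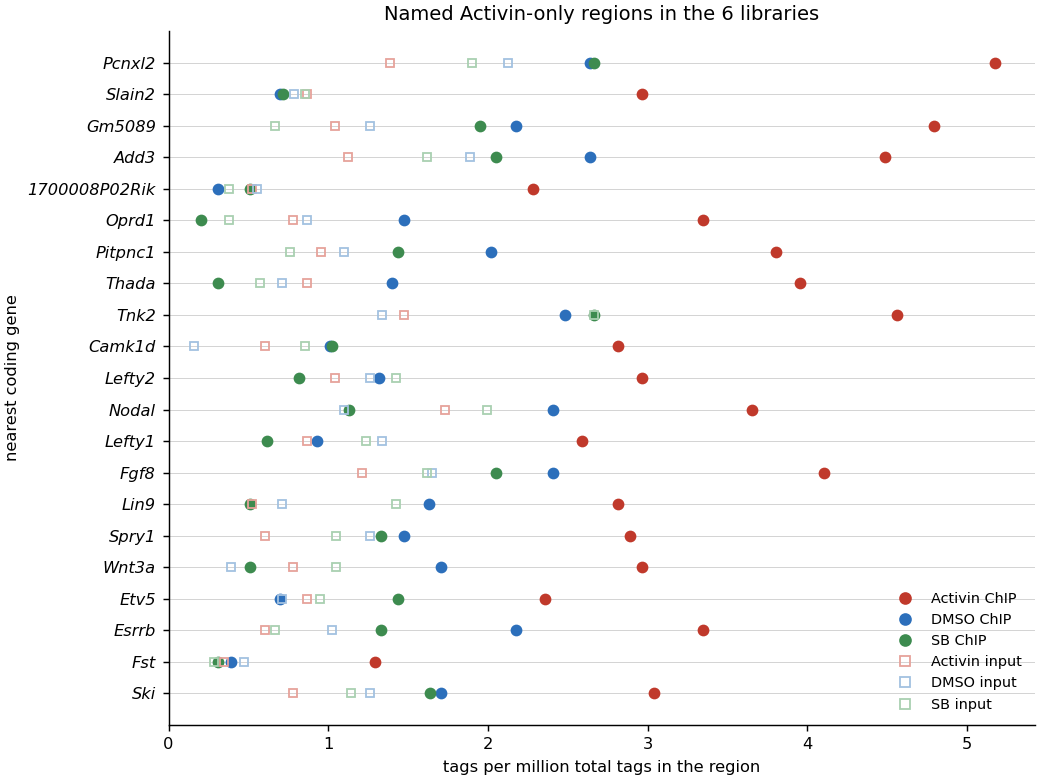
Scaled tags (per 1000000 tags of the library, horizontal) in the 3 ChIP libraries (filled circles) and 3 input libraries (open squares) at the members with the largest tag difference and the members near listed genes, for the genes reported here. Both groups were picked for a large excess of Activin over the higher of DMSO and SB ChIP. In each region drawn the Activin ChIP library is the highest of the 6, which among the ChIP libraries belongs to that choice. The order of DMSO and SB varies. Listed genes such as Sox2 and Klf2, where Activin was below SB, are not drawn.

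Within 1 kb of a coding start site, the member with the largest ratio of the named set was 0.175 kb upstream of A330041J22Rik, with 26 tags in Activin and 2 in each of DMSO and SB ChIP. Its inputs held 9, 13 and 7 tags, more than the DMSO and SB ChIP libraries, and the ratio of 12.7 to DMSO had an interval of 3.19 to 111. Sirt6, a deacetylase gene, had a member with 50, 22 and 18 tags, and Has3, a hyaluronan synthase gene, one with 44, 21 and 9. Gpr21 and Prdm10 had 37, 15 and 6, and 35, 14 and 5. Both of these lay within 1 kb of an SB interval. Over 100 kb from every coding start site, members nearest to Ets1, a transcription factor gene, and Adcy8, an adenylyl cyclase gene, had 29, 11 and 6 and 29, 10 and 3 tags.

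The members lay mostly away from start sites. Of all members 402 (13.65%, 12.4 to 14.9) were within 1 kb of a coding start site, 10.9% in exons, 40.2% in introns, 15.9% within 10 kb of a coding gene and 19.4% farther away. Regions that the Activin list shared with another were nearer, with 23.55% within 1 kb of a start site (21.7 to 25.5). Of regions in the DMSO list alone 13.3% were, of those in the SB list alone 27.0%, and of 10212 positions spaced evenly over the genome 2.42%. The median distance was 12.4 kb for the members, 5.46 kb for the shared regions and 55.6 kb for the spaced positions. The 787 members 2-fold above both other libraries were at a median of 28.7 kb, with 3.81% within 1 kb of a start site (2.59 to 5.40), and the other 2159 at 8.96 kb with 17.2% (15.7 to 18.9). The share 2-fold above both was itself higher at low tag numbers (above), and the part of level in this difference was not tested. The members named 2463 nearest genes, of which 2095 had 1 member. Jarid2, which encodes a component of the Polycomb complex, had 7 as Tgif1 did, Phf17 had 6, and Dlc1, Rybp, Spred2 and Ywhae had 5 each. Another member lay within 50 kb of 1030 members (35%), in 404 runs.

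**Figure D5:**
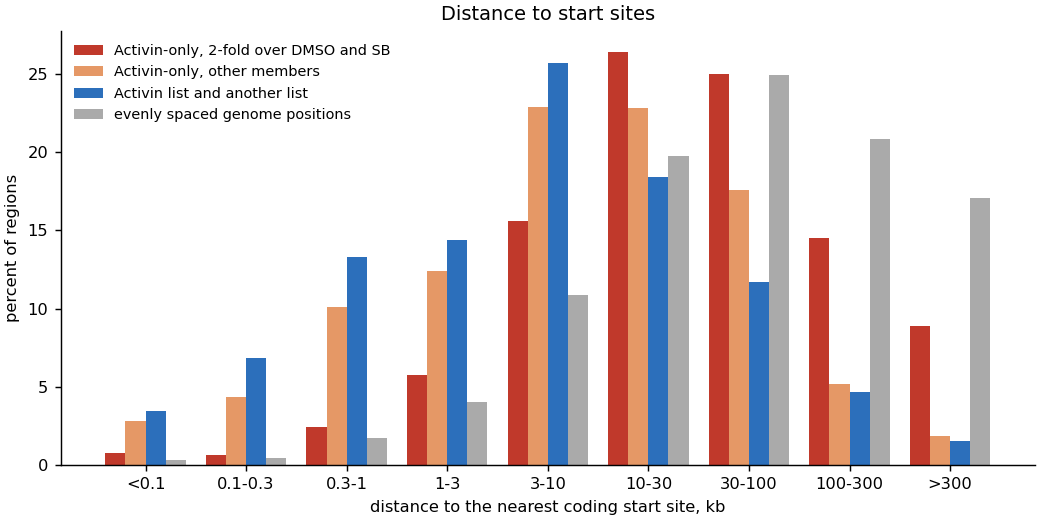
Percent of regions (vertical) by distance to the nearest coding start site in kb (horizontal, 9 classes) for the Activin-only regions 2-fold above DMSO and SB, the other Activin-only regions, the regions shared with another list, and evenly spaced genome positions. The first group has its largest share beyond 10 kb, with 3.81% within 1 kb, against 17.2% of the other members and 23.55% of the shared regions.

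The sequence at the members was richer in CAGAC than the genome at large, to the same extent as in the shared regions. Within 100 bp of the Activin position 1420 members (48.2%, 46.4 to 50.02) held it, against 48.3% of the shared regions (46.1 to 50.5) and 33.3% of the spaced positions (32.4 to 34.3). Per 100 bp the element was found 0.37 times within 100 bp of the position and 0.253 times at 300 to 500 bp, a ratio of 1.46, and 1.52 in the shared regions. The Foxh1 element AATCCACA was in 89 members (3.02%, 2.43 to 3.70), 4.02% of the shared regions and 0.94% of the spaced positions, and was 3.34 times as dense within 100 bp as at 300 to 500 bp. AATACACA was in 3.19%, 4.07% and 1.43%. TGANTCA was in 6.45% of the members and 6.58% of the spaced positions. GGCGC, a GC-rich Smad element, was in 11.5% of the members and 17.7% of the shared regions (16.0 to 19.4) against 3.3%, and the palindrome GTCTAGAC in 16 members. The members had a median GC content of 46.5% over the interval and 49.8% within 100 bp, the shared regions 49.1% and 51.2%, and the spaced positions 41.7% and 41.8%, and the part of base composition in the shares was not tested.

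Since the split by tag ratio uses the libraries of the rule, the following is a description. CAGAC was in 46.9% of the members 2-fold above both other libraries and in 48.7% of the rest, and in 48.4% of the members with no other-list interval within 1 kb. Its density within 100 bp was 1.60 times that at 300 to 500 bp in the first of these sets and 1.46 times in all members. The median GC content was 43.3% in the members 2-fold above both and 47.8% in the rest. The share with CAGAC rose with the listed tag number, from 42.8% at 9 to 12 tags to 53.5% at 50 or more. The median GC content rose as well, from 41.9% to 52.8%.

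The exact binomial test of the DMSO against the SB ChIP library called 74 members higher in DMSO (2.51%), where 9.0% of all regions were, and 63 lower (2.14%), where 8.15% were. All regions included those of the DMSO list alone and of the SB list alone, and the members had no peak in either list. The members also had fewer tags, at medians of 13 in DMSO and 8 in SB ChIP against 19 and 13 over all regions. The part of either in the lower shares was not tested, and nothing is read from these shares. The 74 had medians of 24, 21 and 3 tags (Activin, DMSO, SB ChIP), and 3 of them (4.05%) were within 1 kb of a start site. The 63 had 34, 19 and 38 tags, and 31 (49.2%) were within 1 kb of a start site. In this set the SB input was above the DMSO input in the same direction, with the DMSO input the higher in 23.8%, and the median GC content was 57.6% against 45.9% in the 74. These values were not counted for all called regions, so no trait of the members is read from them. Regions of the SB list alone also had more near start sites (27.0%) than those of the DMSO list alone (13.3%). Their median GC content was 50.4% against 45.6%. Fewer were called over distinct tags, with each position and strand counted once: 9 were higher in DMSO, where 1.94% of all regions were, and 16 lower, where 2.59% were. The region nearest Pgk2 passed the exact test both ways. Its 1555 and 1570 distinct tags in DMSO and SB ChIP nearly filled the positions of an 833 bp interval on both strands. Distinct tags cannot measure a difference there, and nothing is read from that result. Among the other named members, Pgpep1, with 274, 248 and 76 tags, and Sox2 passed the exact test both ways. The adjusted p over distinct tags was 0.000374 for Pgpep1 and 0.00111 for Sox2. Oprd1 and Thada passed it only when all tags were counted, with adjusted p = 0.0171 and 0.0441 (exact test, and 0.0972 and 0.16 over distinct tags). The same held for 1700067K01Rik, which was lower in DMSO, with adjusted p = 0.0368 in the exact test and 0.0613 over distinct tags.

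Between inputs, the same exact binomial test called 0 members higher and 1 lower in Activin than in DMSO, where 0.00% and 0.0230% of all regions were called. Against the SB input it called 0 higher and 7 lower, where 0.0154% and 0.223% were. At an unadjusted p under 0.05 the counts were 11 higher and 198 lower against DMSO, and 6 and 262 against SB. Since the Activin peaks were called against the Activin input, a low Activin input belongs to how the members were chosen, and nothing is read from these counts. Between the DMSO and SB inputs 0 members were called higher and 2 lower in DMSO, where 0.00% and 0.0768% of all regions were, with 53 and 86 at an unadjusted p under 0.05.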

How the data were processed

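The authors aligned 35 bp tags to mm9, called peaks with MACS at a p of 1e-05 with tags extended to 200 bp, and deposited, per library, the positions of the aligned tags (unit: coordinates) and, per ChIP library, a list of peak positions, each with a count of tags. Which aligner was used is not given in the sources used here. Assembly NCBIM37 (equal to mm9) and GENCODE vM1 supplied sequence and genes. Of all tags 1 lay past the end of a chromosome. The listed tag number was used as deposited: it was within 1 tag of a count in 100 bp to each side of the position in 484 members (16.4%).

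A tag was counted if its fragment middle, 100 bp from its 5′ end, lay in a region, and counts were scaled to 1000000 total tags, which ranged from 9757735 to 13148559 per library. Positions, tags and elements were handled with Python 3.11.15, NumPy 2.4.6, pandas 2.3.3, SciPy 1.17.1, pysam 0.24.0 and samtools 1.23.1. Peaks had been called per library with its input. Shares and ratios have 95% Clopper-Pearson intervals. DMSO and SB ChIP libraries, and inputs, were compared by a two-sided exact binomial test with Benjamini-Hochberg adjustment over 13017 regions at 0.05. Each compares 2 libraries, not conditions, and 0 groups had a second library. On simulated DMSO and SB counts at 13017 regions 17% of the 2-fold and 58% of the 4-fold differences were recovered, and 1 region was called among 12817 drawn without a difference. These counts were drawn with counting error alone. In the real DMSO and SB ChIP libraries 24.6% and 20.0% of tags shared a position and strand, so the simulated rates may not hold for them.

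Regions were named by the nearest coding start site: the 10 with most Activin tags, the 12 with the largest difference of distinct scaled tags, the 6 such within 1 kb of a start site, the 5 over 100 kb away, the 5 tallest not above DMSO or SB, the 12 of the gene lists, and those near Fgf8 or 2210011C24Rik, whose symbol was first searched as 2210011C21Rik and not found. For each list gene the member within 50 kb with the largest such difference was taken, and the 12 were the largest of these. Members and lists were chosen with earlier results of these data known. Elements were searched on both strands. Alternatives covered distinct tags, scaling, folds, windows, distances and interval lengths. A few regions that these rules named are not reported here.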

Additional observations from a re-analysis of the deposited data

How the results depend on the processing

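The number of Activin-only regions stayed between 2240 and 3199 under 5 alternatives, 4 planned and 1 chosen after seeing the data. The shares of members 2-fold above DMSO, above SB and above both moved to 36.4%, 42.7% and 23.8% when tags at 1 position and strand were counted once, to 58.2%, 62.3% and 45.1% at 1.5-fold and to 20.0%, 26.2% and 10.1% at 3-fold. They were 30.4%, 38.6% and 19.1% for peaks of at least 13 listed tags and 51.0%, 58.7% and 38.6% in 200 bp to each side of the position, and 43.2%, 51.1% and 30.2% without members within 1 kb of another list (chosen after seeing the data). Scaling by tags outside all regions, and a tag shift of 82 bp, moved them by less than their intervals. The ChIP over input shares for Activin, DMSO and SB were 96.0%, 32.2% and 30.8% over distinct tags and 64.7%, 13.3% and 13.85% at 3-fold, and the DMSO share was 34.8% under the other scaling.

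The summed ratio of Activin to DMSO was 1.41 over distinct tags, 1.19 in the 200 bp windows and 1.44 without the member with most tags. The ratio to SB reversed, to 1.37 and to 1.46, under the first and last of these, and was 0.67 with the other scaling and 0.83 in the windows. Members called between DMSO and SB ChIP numbered 25 over distinct tags, between Activin and DMSO input 0, and between Activin and SB input 4. The share near start sites was 19.9% within 2 kb, 16.1% by any overlap, 18.9% with start sites of all genes and 17.5% for peaks of at least 13 tags. The share with CAGAC was 29.1% within 50 bp, 67.7% within 200 bp and 50.2% for peaks of at least 13 tags. Median GC content was 49.8% within 100 bp. List genes with a member numbered 38 within 20 kb and 43 for peaks of at least 13 tags. Of the 84 named ratios 3 moved over distinct tags, 10 in the windows and 1 with the other scaling. The Activin to DMSO ratio crossed 1 at Mgea5 (0.928, then 1.05 over distinct tags and 1.96 in the windows) and at 1700067K01Rik (0.864, then 1.47 in the windows). No paired analysis was possible because each group had 1 library, which also limits every comparison to libraries, and medians of 5 to 21 tags limit single ratios. The cause of these moves was not tested.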
